A study of Homo sapiens with 4 samples.

Results

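The enzymes described are the conjugating enzymes of drug and hormone metabolism, taken as the protein-coding genes whose symbols place them among the UDP-glucuronosyltransferases (UGT), the glutathione S-transferases (GST), the microsomal glutathione S-transferases (MGST), the cytosolic sulfotransferases (SULT) and the arylamine N-acetyltransferases (NAT). The symbol rule found 56 such genes among the 57820 gene rows of the count files, made up of 22 UGT, 16 GST, 3 MGST, 13 SULT and 2 NAT genes. Pseudogenes of these families, 27 rows in all, were left out. The 4 RNA-seq libraries all come from A549, an established line of human lung adenocarcinoma cells. TD cells (2 libraries) are A549 cells of mesenchymal-like shape that are maintained on TGF-β at 2 ng/ml, renewed at 3-day intervals. Parental A549 cells (2 libraries) have an epithelial shape, and the labels give no TGF-β for them. The labels do not say how long TD cells had been on TGF-β, whether the line is a clone or whether each library had its own culture. The p-values therefore rest on the spread among libraries, and that spread may be technical alone.

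Conjugation is the step in which a cell attaches a bulky, usually charged group to a reactive or fat-soluble compound so that it can be carried out. UGT enzymes sit in the endoplasmic reticulum and transfer glucuronic acid from UDP-glucuronate, soluble GST and membrane-bound MGST enzymes attach the tripeptide glutathione, SULT enzymes transfer sulfate from the donor PAPS, and NAT enzymes transfer an acetyl group from acetyl-CoA. In airway and lung tumour cells these enzymes are studied for their handling of tobacco carcinogens, steroid hormones and anticancer drugs. Many of the glutathione-linked genes are targets of NRF2, a transcription factor of the oxidant response whose repressor KEAP1 is mutated in A549.

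Gene counts came to 28237849 and 44133836 in TD replicates 1 and 2, and to 26729278 and 29381872 in A549 replicates 1 and 2. Levels are given as CPM, which are read counts scaled to library size. A gene with 0 counts could still have a level of up to 3 counts, or 0.068 to 0.112 CPM at these totals, and such limits and intervals cover counting error only. All 6 epithelial markers examined, CDH1 and EPCAM among them, were called lower in TD, and all 5 mesenchymal markers were called higher. Markers of other cell types summed to little RNA. Fibroblast markers summed to 1.14 and 1.16 CPM in TD and 1.72 and 1.65 CPM in A549, and leukocyte markers to 2.31 and 1.75 CPM in TD and 2.62 and 2.36 CPM in A549. Endothelial markers summed to 0.724 and 0.615 CPM in TD and 0.144 and 0 CPM in A549. Hepatocyte markers summed to 0.0345 and 0.0492 CPM in TD and 0.611 and 0.640 CPM in A549. CD3E and APOA2 had 0 counts in every library, and the part of these other cell types in the results was not tested.

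Most of the conjugating enzymes with enough RNA to be tested were lower in TD, and a few, led by UGT2B7 and UGT1A7, were higher. Of the 56 genes, 25 passed the expression filter and 31 did not. Among these 25, 14 were called lower in TD, where 21.4% of all tested genes were called lower, and 4 were called higher, where 21.6% of all tested genes were. A call means an adjusted p below 0.05 by edgeR's quasi-likelihood test, with Benjamini-Hochberg adjustment over all 17785 tested genes. With at least a 2-fold change, 13 were lower and 4 higher, against 12.3% and 9.49% of all tested genes. The median log2 change was -1.02 for the 25 and -0.04 for all tested genes. These shares are a description only, because some genes reached the minimum count in 1 group alone. For GSTM2, SULT1A3, UGT1A8 and UGT2B11 that group was A549, so a call could only be lower. For SULT1B1 and UGT2A3 it was TD, so a call could only be higher. Among the 19 genes that reached the minimum in both groups, 10 were called lower and 3 higher. In bulk RNA, fewer cells with a transcript and less transcript per cell cannot be told apart.

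**Figure D1:**
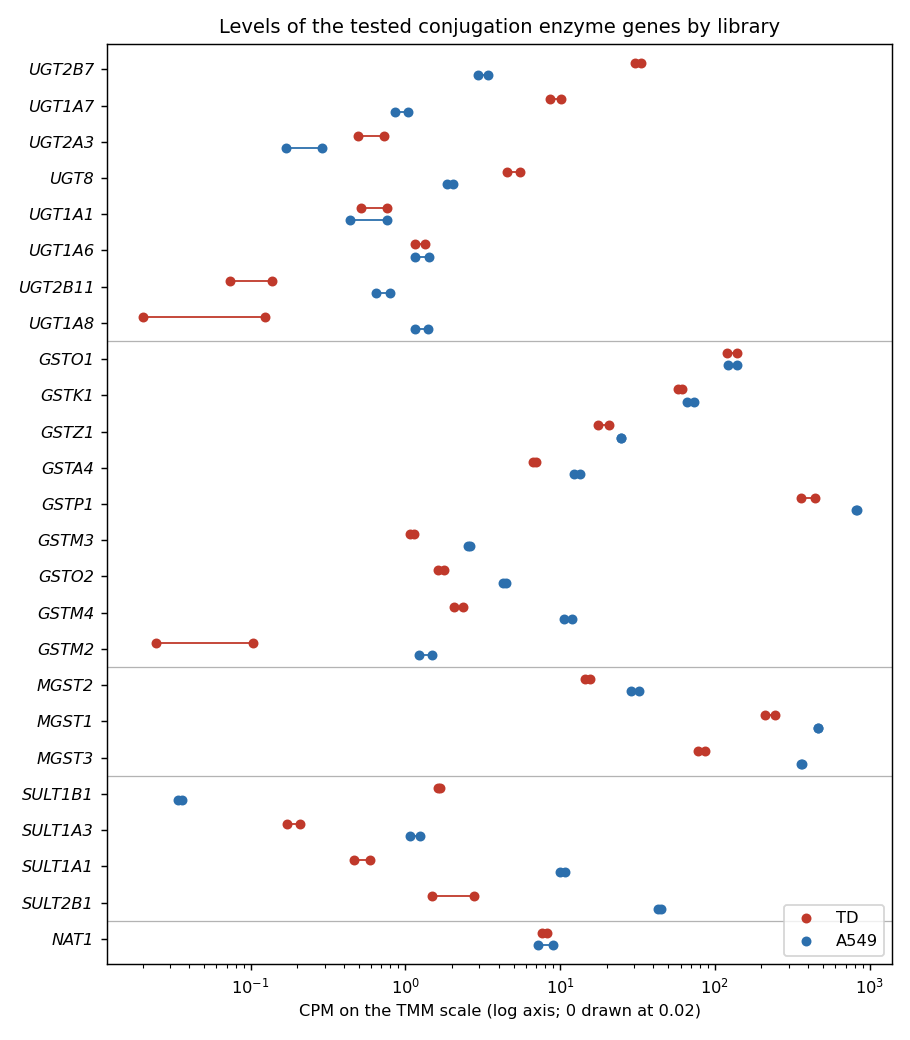
Level of each tested conjugation enzyme gene in CPM (log axis), with 1 point for each library and a line joining the 2 libraries of a group, TD above A549 in each row, and values of 0 drawn at 0.02. Genes are grouped by family, and UGT2B7, UGT1A7, UGT8 and SULT1B1 lie to the right in TD while the GSTM, MGST, SULT1A and SULT2B1 points lie to the left.

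The UGT family held 3 of the 4 genes called higher, of which UGT8 is not a glucuronosyltransferase. Among its 8 tested genes 3 were called higher and 2 lower, against 21.6% and 21.4% of all tested genes. UGT2B7, which glucuronidates morphine, steroids and bile acids in liver, had 30.7 and 33.2 CPM in TD, against 3.41 and 2.93 CPM in A549. Every TD value was far above every A549 value. By edgeR the log2 change was 3.33 (SE 0.12, adjusted p = 8.07e-05), a 10.1-fold difference of means. UGT1A7, an enzyme of the airway and gut lining that acts on tobacco carcinogens, had 8.58 and 10.2 CPM in TD, against 0.862 and 1.04 CPM in A549. Its log2 change was 3.29 (SE 0.21, adjusted p = 0.000383), and the groups did not overlap. UGT8 differs in role from the others, since it adds galactose to ceramide to make lipids of the myelin sheath. Its level was 4.55 and 5.48 CPM in TD, against 1.87 and 2.02 CPM in A549 (log2 change 1.37, SE 0.20, adjusted p = 0.00571). The UGT8 call was lost without A549 replicate 1 (adjusted p = 0.0525).

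UGT1A8 and UGT2B11, both of low level, were called lower. Both reached the minimum count in A549 alone, so their calls could only be lower. UGT1A8, an enzyme of the intestinal lining, had 0 and 5 counts in TD replicates 1 and 2, or 0 and 0.123 CPM, against 39 and 34 counts, or 1.40 and 1.15 CPM, in A549 (log2 change -4.14, SE 0.90, adjusted p = 0.0195). UGT2B11 had 0.138 and 0.0738 CPM in TD, against 0.790 and 0.640 CPM in A549 (log2 change -2.75, SE 0.54, adjusted p = 0.0142). Leaving out A549 replicate 1 ended both calls (adjusted p = 0.159 for UGT1A8 and 0.145 for UGT2B11), as did leaving out A549 replicate 2 (0.134 and 0.107). The size of the UGT1A8 change rests on a few counts, and was -3.32 without TD replicate 1, -8.20 without TD replicate 2 and -5.72 with libraries thinned to the smallest total. UGT1A6, which acts on small phenols, had 1.34 and 1.16 CPM in TD and 1.15 and 1.42 CPM in A549, with overlapping groups and no call (adjusted p = 0.922). UGT1A1, the enzyme that conjugates bilirubin, had 0.517 and 0.762 CPM in TD and 0.754 and 0.438 CPM in A549 (adjusted p = 0.861). UGT2A3, which reached the minimum count in TD alone, had 0.724 and 0.492 CPM in TD and 0.287 and 0.169 CPM in A549. Its groups did not overlap, but it was not called (log2 change 1.40, SE 0.52, adjusted p = 0.0894). It was called higher with protein-coding genes alone (adjusted p = 0.0238), with pseudogenes left out (0.0234) and without TD replicate 2 (0.0125).

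The UGT1A genes are a single locus on chromosome 2 in which each gene has its own first exon and all share the following exons. Reads in the shared exons fall in several annotated genes at once and are given to none of them. By GENCODE 29, UGT1A8 has 923 exonic bases outside other genes and a first exon of 918 bases, whereas UGT1A7 has 2475 such bases and a first exon of 855. Which exons the counted reads came from cannot be read from counts per gene. The junctions below show the shared exon for the 4 tested genes and come from GENCODE 29 transcripts (GRCh38, plus strand). Lower case letters are the last 30 bases of the gene's own first exon and capitals are the first 30 bases of the shared second exon, chr2:233767034-233767165.
UGT1A7: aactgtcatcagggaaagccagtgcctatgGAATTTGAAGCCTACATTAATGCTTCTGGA
UGT1A8: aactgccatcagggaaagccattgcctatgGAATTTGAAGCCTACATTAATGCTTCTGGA
UGT1A6: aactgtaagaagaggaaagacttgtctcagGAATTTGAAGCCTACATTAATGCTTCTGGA
UGT1A1: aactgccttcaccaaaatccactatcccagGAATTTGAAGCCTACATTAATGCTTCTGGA
The capitals are the same in each line, while the lower case part of UGT1A7 and UGT1A8 is closer to each other than to that of UGT1A6 or UGT1A1. Over their whole first exons, UGT1A7 and UGT1A8 were identical at 93.3% of 855 aligned bases, against 62.5% of 829 for UGT1A6 with UGT1A7 and 58.7% of 835 for UGT1A1 with UGT1A7. Of all 75-base windows in its annotated transcripts, 38% of UGT1A7 and 66.9% of UGT1A8 also occur in transcripts of another gene, mostly the shared exons. The difference between the rise of UGT1A7 and the fall of UGT1A8 was not tested. With the 9 genes of the locus summed, the level was 10.4 and 12.2 CPM in TD, against 4.35 and 4.04 CPM in A549. Tested by edgeR as a single feature in place of its genes, this sum was higher in TD (log2 change 1.43, SE 0.15, adjusted p = 0.0018). UGT1A7 carried the rise in this sum. The other 8 genes summed to 1.86 and 2.04 CPM in TD, against 3.48 and 3.00 CPM in A549, the opposite order.

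The UGT2 genes lie together on chromosome 4, followed in the annotated order by SULT1B1 and SULT1E1. Within this stretch UGT2B7 and SULT1B1 were called higher and UGT2B11 lower, while UGT2A1 and UGT2A2 had 0 counts in every library. UGT2B7 shares 1.76% of its 75-base windows with other genes, against 16.4% for UGT2B11 and 18.4% each for UGT2B15 and UGT2B17, so few of its reads could have been divided among copies. UGT2B28 had 0 counts in TD and 9 in A549, at least 3.64-fold lower, and UGT2B10 had 0 in TD and 6 in A549, at least 2.43-fold lower. Neither was tested, and both bounds set 3 counts over the group in place of 0. Summed over the 10 UGT2 genes, the level was 31.6 and 34.1 CPM in TD and 4.92 and 4.15 CPM in A549 (log2 change 2.86, SE 0.12, adjusted p = 0.000123 by edgeR for the sum as a single feature). UGT2B7 made up nearly all of it in TD and a smaller part in A549. The other 9 genes summed to 0.930 and 0.861 CPM in TD, against 1.51 and 1.21 CPM in A549.

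**Figure D2:**
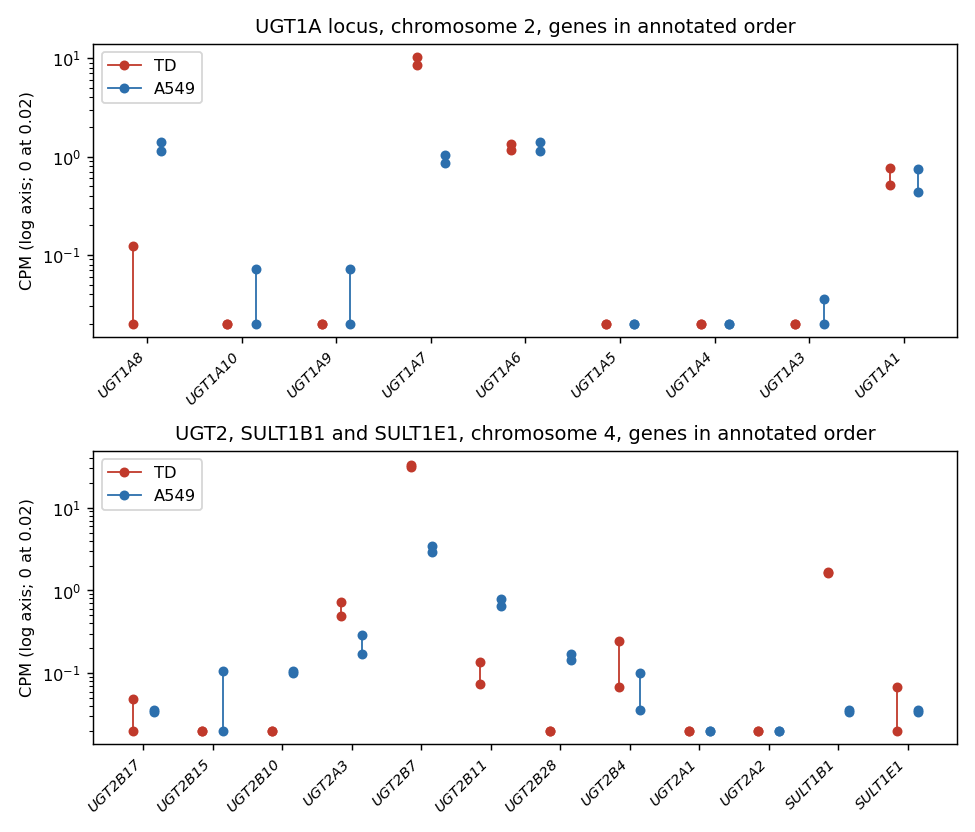
CPM per library (log axis, 0 drawn at 0.02) for the UGT1A genes and for the UGT2, SULT1B1 and SULT1E1 genes in their annotated order, with TD left of A549 at each gene. UGT1A7, UGT2B7 and SULT1B1 stand above A549 in TD, UGT1A8 and UGT2B11 stand below, and UGT1A6 and UGT1A1 overlap.

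The soluble glutathione transferases went down or did not pass the test, and none was called higher. Of 16 genes, 9 were tested, 6 were called lower and 3 were not called. Of all tested genes, 21.4% were called lower and 21.6% higher. GSTP1, the pi-class enzyme common in lung tumours, had 363 and 446 CPM in TD, against 815 and 826 CPM in A549. The TD libraries differed from each other more than the A549 libraries did, yet both lay below them (log2 change -1.02, SE 0.13, adjusted p = 0.00327 by edgeR). It was the most abundant of the 56 genes in both groups, both in CPM and in CPM per kilobase of exon outside other genes, where it measured 212 in TD and 429 in A549. GSTO1 came next on that length-scaled measure, with 76.4 in TD and 77.3 in A549.

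The mu-class genes, which form a cluster on chromosome 1, were all lower where tested. GSTM2 reached the minimum count in A549 alone, so its call could only be lower. GSTM4 had 2.34 and 2.07 CPM in TD, against 12 and 10.6 CPM in A549 (log2 change -2.35, SE 0.16, adjusted p = 0.000505). GSTM2 had 3 and 1 counts in TD, or 0.103 and 0.0246 CPM, against 34 and 44 counts, or 1.22 and 1.48 CPM, in A549 (log2 change -4.42, SE 0.63, adjusted p = 0.00524). GSTM3 had 1.07 and 1.13 CPM in TD, against 2.62 and 2.53 CPM in A549 (log2 change -1.22, SE 0.23, adjusted p = 0.0124). Without A549 replicate 1 the calls of GSTM2 and GSTM3 were lost (adjusted p = 0.0625 and 0.0818), as they were without A549 replicate 2 (0.0749 and 0.0742). The GSTM2 log2 change was -5.57 without TD replicate 1 and -3.66 without TD replicate 2. GSTM2 shares 14.2% of its 75-base windows with other genes, GSTM4 10.1% and GSTM3 0%. The 5 GSTM genes together summed to 3.52 and 3.25 CPM in TD, against 16.0 and 14.6 CPM in A549 (log2 change -2.18, SE 0.13, adjusted p = 0.000304 for the sum as a single feature).

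GSTA4, the alpha-class enzyme that removes the lipid aldehyde 4-hydroxynonenal, had 6.996 and 6.66 CPM in TD, against 12.3 and 13.5 CPM in A549 (log2 change -0.92, SE 0.12, adjusted p = 0.00356). The other alpha-class genes were close to silent in both groups, with at most 10 counts in any library. The omega class was split. GSTO2, a dehydroascorbate reductase, had 1.62 and 1.77 CPM in TD, against 4.49 and 4.28 CPM in A549 (log2 change -1.37, SE 0.19, adjusted p = 0.00496). GSTO1, its neighbour on chromosome 10, had 119 and 139 CPM in TD and 122 and 139 CPM in A549, with overlapping groups and no call (log2 change -0.02, SE 0.12, adjusted p = 0.923). GSTK1, an enzyme of mitochondria and peroxisomes, had 58.1 and 61.3 CPM in TD and 65.7 and 73.1 CPM in A549 and was not called (log2 change -0.22, SE 0.09, adjusted p = 0.109). GSTZ1, which acts in tyrosine breakdown, had 17.5 and 20.8 CPM in TD and 24.7 and 24.6 CPM in A549. It narrowly missed the threshold (log2 change -0.36, SE 0.11, adjusted p = 0.053) and was called under 9 of the 17 alternatives, as GSTK1 was under 5.

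All 3 microsomal glutathione transferases were called lower, under each alternative run, where 21.4% of all tested genes were called lower in the main fit. MGST3 changed most, with 77.5 and 86.2 CPM in TD, against 366 and 359 CPM in A549 (log2 change -2.15, SE 0.09, adjusted p = 0.000119). MGST1, an abundant enzyme of the endoplasmic reticulum and outer mitochondrial membrane, had 211 and 244 CPM in TD, against 464 and 461 CPM in A549 (log2 change -1.02, SE 0.10, adjusted p = 0.00159). MGST2, which can also make leukotriene C4, had 14.5 and 15.5 CPM in TD, against 28.5 and 32.5 CPM in A549 (log2 change -1.02, SE 0.10, adjusted p = 0.00173). None of the 3 genes shared a 75-base window with another gene.

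**Figure D3:**
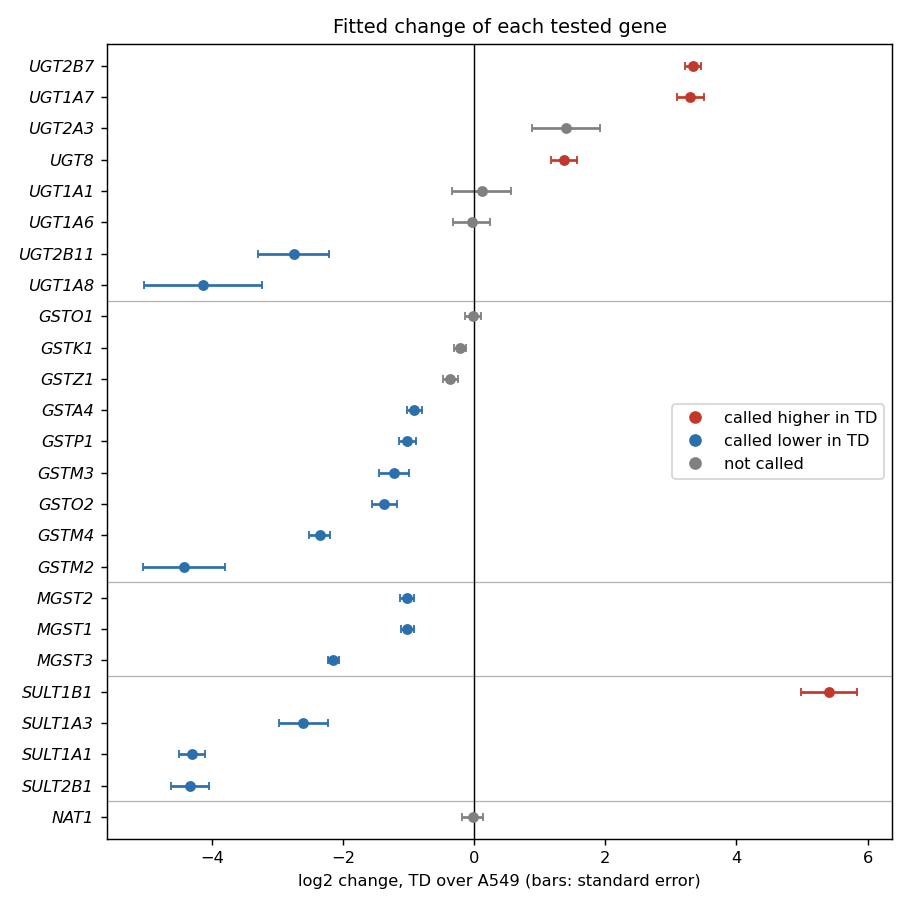
Fitted log2 change of TD over A549 with its standard error for the 25 tested genes, grouped by family. Among the UGT genes 3 are called higher and 2 lower, no GST or MGST gene is called higher, and SULT1B1 is the gene called higher among the sulfotransferases.

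Sulfotransferases had 3 genes called lower and 1 higher of the 4 tested, where 21.4% of all tested genes were called lower and 21.6% higher. SULT1B1 had the largest fitted rise among the 25 tested enzymes. SULT1B1 reached the minimum count in TD alone and SULT1A3 in A549 alone, so the direction of these calls was set by the filter. SULT2B1, which sulfates cholesterol and pregnenolone in epithelia, had 1.48 and 2.78 CPM in TD, against 44.8 and 43.1 CPM in A549. The TD libraries held 43 and 113 counts of it, so their levels differed by more than those of A549, and both stayed far below (log2 change -4.33, SE 0.28, adjusted p = 0.000444 by edgeR). SULT1A1, the main phenol sulfotransferase, had 0.586 and 0.467 CPM in TD, against 9.99 and 10.8 CPM in A549 (log2 change -4.30, SE 0.20, adjusted p = 0.000160). SULT1A3, which sulfates dopamine, had 0.207 and 0.172 CPM in TD, against 1.08 and 1.25 CPM in A549 (log2 change -2.60, SE 0.38, adjusted p = 0.00559). SULT1A3 and SULT1A4 are near-identical copies that share 80.8% and 96.2% of their windows with other genes, so their separate values are uncertain. Leaving out A549 replicate 1 or 2 ended the SULT1A3 call (adjusted p = 0.0601 and 0.0769). The 4 SULT1A genes summed to 0.827 and 0.689 CPM in TD, against 11.5 and 12.6 CPM in A549 (log2 change -3.99, SE 0.18, adjusted p = 0.000144 for the sum as a single feature).

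SULT1B1, which sulfates thyroid hormones, was the only sulfotransferase called higher in TD. It had 47 and 68 counts in TD, or 1.62 and 1.67 CPM, against 1 count in each A549 library, or 0.0359 and 0.0337 CPM. By counts it was 47.4-fold higher (95% interval 12.8 to 396), with an adjusted p of 0.000768. SULT1E1, the estrogen sulfotransferase that lies beside it, had 2 and 0 counts in TD and 1 and 1 in A549. SULT1C2 had 8 and 12 counts in TD and 9 and 5 in A549 and did not pass the filter. The remaining sulfotransferases outside the SULT1A cluster had at most 2 counts in any library.

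Of the acetyltransferases, NAT1, which acetylates arylamines in most tissues, had 8.27 and 7.62 CPM in TD and 7.22 and 8.93 CPM in A549 (log2 change -0.02, SE 0.16, adjusted p = 0.915). Its groups overlapped. NAT2, the liver and gut form, had 0 counts in TD and 1 in A549.

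The 31 genes that did not pass the filter had at most 12 counts in a TD library and at most 13 in an A549 library, and 9 of them had none anywhere. These included the liver enzymes SULT2A1 and UGT1A4, and UGT2A1, an enzyme of the olfactory lining. Besides those already given, the untested genes with the most counts were GSTA2, with 3 counts in TD and 18 in A549 (7.28-fold lower, 95% interval 2.13 to 38.6), SULT1A2, with 1 in TD and 18 in A549 (21.9-fold lower, 3.45 to 910), and UGT2B4, with 12 in TD and 4 in A549. SULT1A4 had 2 counts in TD and 10 in A549 (6.07-fold lower, 1.29 to 57.0), and GSTA1 had 0 in TD and 4 in A549, at least 1.62-fold lower. With no filter on low counts, edgeR called 3 of the 31 lower, namely GSTA2 (adjusted p = 0.0209), SULT1A2 (0.00811) and UGT2B28 (0.0365).

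Summed over each family, the RNA moved down for 3 families and up for the UGT family. GST genes summed to 570 and 680 CPM in TD, against 1061 and 1096 CPM in A549. MGST genes summed to 303 and 345 CPM in TD, against 858 and 853 CPM in A549. SULT genes summed to 4.34 and 5.48 CPM in TD, against 56.7 and 55.9 CPM in A549, which made the mean 11.5-fold lower. UGT genes summed to 46.6 and 51.8 CPM in TD, against 11.1 and 10.2 CPM in A549, a mean 4.60-fold higher. Without UGT2B7 and UGT1A7, the other 20 UGT genes summed to 7.34 and 8.39 CPM in TD, against 6.86 and 6.27 CPM in A549. Most of that TD sum was UGT8, with 4.55 and 5.48 CPM in TD, against 1.87 and 2.02 CPM in A549. The UGT1A genes other than UGT1A7 and the UGT2 genes other than UGT2B7 each summed to less in TD than in A549, as given above. NAT genes summed to 8.27 and 7.62 CPM in TD and 7.26 and 8.93 CPM in A549. These family sums are given as descriptions, with no test. GSTP1 and MGST1 kept similar shares of the summed CPM of the 56 genes, with 40.0% and 22.5% in TD and 40.9% and 23.0% in A549, whereas these genes and MGST3 together took 70.6% in TD and 81.9% in A549.

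**Figure D4:**
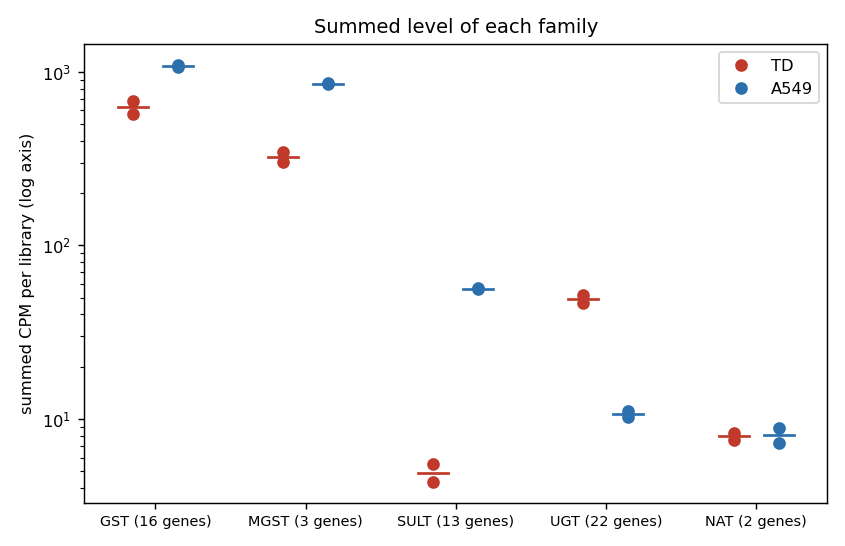
Summed CPM of each family (log axis), with 1 point for each library, a bar at the mean of the 2 libraries, and TD left of A549. SULT sums lie near 5 CPM in TD and near 56 CPM in A549, UGT sums show the opposite order, and NAT sums overlap.

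Genes that supply UDP-glucuronate and glutathione were mostly lower, and those that supply PAPS were mixed. Over all tested genes, 21.4% were called lower and 21.6% higher. Of 6 genes for UDP-glucuronate, 5 were called lower, none higher, with a median log2 change of -0.65. UGDH, which oxidises UDP-glucose to UDP-glucuronate, had 307 and 326 CPM in TD, against 497 and 469 CPM in A549 (log2 change -0.61, SE 0.08, adjusted p = 0.00487). UGP2, which makes the UDP-glucose, had 128 and 124 CPM in TD, against 191 and 223 CPM in A549, and the nucleotide-sugar transporter gene SLC35D2 had 8.93 and 10.0 CPM in TD, against 17.5 and 18.4 CPM in A549. Of 7 genes for glutathione, 5 were called lower and none higher, with a median of -0.78. GCLC, the catalytic subunit of the rate-limiting enzyme, had 63.6 and 61.9 CPM in TD, against 249 and 246 CPM in A549 (log2 change -1.98, SE 0.07, adjusted p = 8.48e-05). Its partner GCLM had 97.1 and 106 CPM in TD, against 158 and 171 CPM in A549 (log2 change -0.70, SE 0.09, adjusted p = 0.00355).

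The sulfate donor genes were mixed, with 2 of 6 called higher and 1 lower and a median log2 change of -0.22. The shares over all tested genes were 21.6% higher and 21.4% lower. PAPSS1, a synthase of PAPS, had 64.1 and 63.8 CPM in TD, against 37.0 and 42.1 CPM in A549 (log2 change 0.69, SE 0.09, adjusted p = 0.00403). Its paralog PAPSS2 had 16.8 and 19.4 CPM in TD and 21.1 and 23.7 CPM in A549 and was not called (adjusted p = 0.0931), though it was called lower under 6 alternatives (adjusted p = 0.00760 to 0.0476 there). BPNT2, a Golgi phosphatase of the spent donor, had 178 and 192 CPM in TD, against 138 and 146 CPM in A549, and SLC35B2, which carries PAPS into the Golgi, had 64.4 and 72.3 CPM in TD, against 89.7 and 87.7 CPM in A549. Leaving out A549 replicate 1 or 2 ended the BPNT2 call (adjusted p = 0.0854 and 0.0513). The SLC35B2 call ended in the same way (0.0646 and 0.0589).

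The steps after conjugation were mostly lower. Of 6 exporters of conjugates, 5 were called lower and none higher, with a median log2 change of -1.35. Among all tested genes, 21.4% were called lower and 21.6% higher. ABCC2, which pumps glucuronides and glutathione conjugates out of the cell, had 83.8 and 80.7 CPM in TD, against 621 and 586 CPM in A549 (log2 change -2.88, SE 0.09, adjusted p = 5.62e-05). ABCG2, which exports sulfated compounds, had 4.24 and 4.45 CPM in TD, against 55.0 and 63.6 CPM in A549 (log2 change -3.77, SE 0.12, adjusted p = 5.75e-05). A list of 9 genes covers the enzymes that turn glutathione conjugates into mercapturates, and ACY1 and ACY3, which deacetylate mercapturates. Of the 9, 7 were called lower, ACY1 and ACY3 among them, and 1 higher, with a median of -1.43. GGT5, DPEP1 and NAT8 reached the minimum count in A549 alone, so their calls could only be lower. The gene called higher was ANPEP, an aminopeptidase with many other substrates, at 138 and 153 CPM in TD, against 3.16 and 2.33 CPM in A549 (log2 change 5.73, SE 0.17, adjusted p = 5.41e-05). GGT5, a gamma-glutamyltransferase gene, had 1 count in TD and 166 in A549, 202-fold lower (95% interval 35.7 to 8007). The more abundant GGT1 had 44.9 and 52.5 CPM in TD, against 197 and 180 CPM in A549 (log2 change -1.95). NAT8, the last enzyme of the route, had 0 counts in TD and 22 in A549, at least 8.90-fold lower (adjusted p = 0.0172).

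Enzymes that remove conjugates were for the larger part not called, with 1 of 8 higher and 2 lower and a median of -0.09. For all tested genes the shares were 21.6% higher and 21.4% lower. STS, steroid sulfatase, had 3.93 and 4.30 CPM in TD, against 13.3 and 12.9 CPM in A549, and the arylsulfatase gene ARSE had 27.4 and 30.9 CPM in TD, against 83.4 and 91.0 CPM in A549. ARSB, a lysosomal sulfatase of matrix sugars, was called higher, with 23.4 and 24.96 CPM in TD and 16.2 and 16.6 CPM in A549. Of other members of the glutathione transferase and related membrane superfamilies, 4 of 9 tested were called higher, none lower and 5 not called, with a median of 0.56. ALOX5AP, the activating protein of leukotriene synthesis, had 4.51 and 6.02 CPM in TD, against 0.0359 and 0.135 CPM in A549 (log2 change 5.87, SE 0.51, adjusted p = 0.00110). It reached the minimum count in TD alone. CLIC3 had 2.14 and 3.05 CPM in TD, against 0.539 and 0.506 CPM in A549. Whether these genes differed from the GST and MGST genes was not tested.

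Conjugating enzymes of other kinds also went both ways, with 3 of 10 tested called higher and 4 lower and a median of -0.45. All tested genes together had 21.6% called higher and 21.4% lower. BAAT, which joins bile acids and fatty acids to glycine or taurine, had 93.8 and 102 CPM in TD, against 1.72 and 2.696 CPM in A549 (log2 change 5.46, SE 0.21, adjusted p = 9.30e-05). GLYATL1, a glycine or glutamine acyltransferase gene, had 36 counts in TD and 3 in A549, 9.88-fold higher (95% interval 3.12 to 50.2). This call ended when A549 replicate 1 or 2 was left out (adjusted p = 0.134 and 0.0997). AS3MT, an arsenic methyltransferase, had 3 counts in TD and 46 in A549, 18.6-fold lower (5.98 to 93.6), and leaving out A549 replicate 1 or 2 ended that call (adjusted p = 0.0801 and 0.0821). ACSM3, an acyl-CoA synthetase, had 4.14 and 3.93 CPM in TD, against 13.3 and 13.5 CPM in A549. GLYATL1 reached the minimum count in TD alone and AS3MT in A549 alone.

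**Figure D5:**
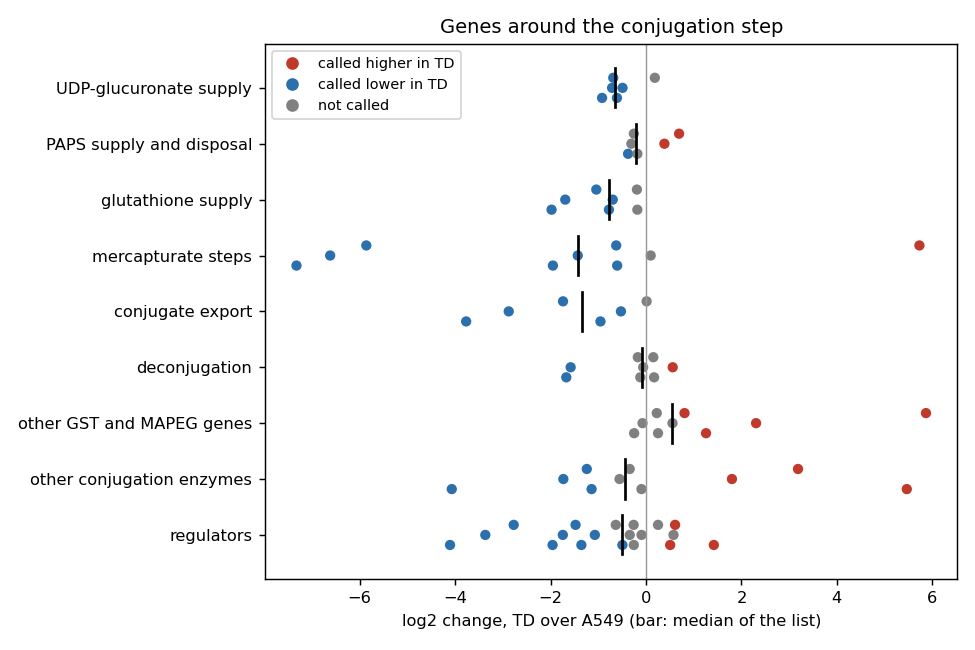
Log2 change of TD over A549 for each tested gene in the lists around the conjugation step, with a bar at the median of each list. Exporters, mercapturate steps and glutathione supply have medians of -1.35, -1.43 and -0.78, while the other GST and MAPEG genes, a name for the membrane family that holds MGST, have a median of 0.56.

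Regulators known to control these enzymes in liver and gut, all transcription factors except KEAP1, were more often lower than higher. Of 19 tested, 9 were called lower and 3 higher, with a median log2 change of -0.49. The shares of all tested genes were 21.4% lower and 21.6% higher. NFE2L2, which encodes NRF2, had 66.3 and 73.4 CPM in TD, against 95.9 and 101 CPM in A549 (log2 change -0.49, SE 0.09, adjusted p = 0.00970), while KEAP1 had 70.0 and 83.9 CPM in TD and 85.5 and 78.7 CPM in A549 and was not called (adjusted p = 0.559). AHR, the receptor for dioxin-like compounds, had 5.45 and 6.54 CPM in TD, against 39.7 and 42.5 CPM in A549 (log2 change -2.77, SE 0.12, adjusted p = 0.000134). HNF4A, a hepatic factor that drives UGT genes in liver, had 72.6 and 81.3 CPM in TD, against 214 and 214 CPM in A549 (log2 change -1.48, SE 0.09, adjusted p = 0.000334). The largest falls in the list were those of NR1H4, the bile acid receptor FXR, with 0.0689 and 0.148 CPM in TD and 1.83 and 2.16 CPM in A549, and FOXA1, with 1.83 and 1.77 CPM in TD and 18.2 and 19.0 CPM in A549. NR1H4 reached the minimum count in A549 alone. PPARG rose to 49.0 and 52.4 CPM in TD, against 18.5 and 19.3 CPM in A549, and MAFG, a small MAF partner of NRF2, to 115 and 112 CPM in TD, against 79.4 and 69.7 CPM in A549. The RNA of a factor is not a measure of its activity, and no relation between these factors and the enzymes was tested.

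Promoter windows, from 250 before to 50 after the RefSeq start of transcription (GRCh38.p14), were matched for 45 of the 56 genes, in 52 windows. Each was searched on both strands for TGACNNNGC, the core of the antioxidant response element that NRF2 binds, for TGANTCA, the AP-1 site, and for GCGTG, the core of the site that AHR binds. The first was in 11 of the 45 genes, in 11 of 52 windows, where 13.3% of all 35116 promoter windows held it. The AP-1 letters were in 1 window of these genes and in 7.71% of all windows, and GCGTG was in 16 of the 52 windows and in 36.5% of all. Among genes with a window, TGACNNNGC was found in 4 of 12 called lower (GSTA4, GSTP1, MGST1 and UGT2B11). It was in 2 of 6 not called, in 0 of 4 called higher and in 5 of 23 not tested. The MGST1 match was in 1 of its 3 windows, at position 30 after the start. GCGTG was found in 6 of 12 called lower, 2 of 6 not called, 2 of 4 called higher and 5 of 23 not tested. Differences between these shares were not tested. A match is a description of the letters and not evidence that a factor binds, and no match says only that the letters are not in this window.

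The promoter windows shown are those of UGT2B7 and SULT2B1, the genes of at least 10 CPM with the largest rise and fall, and of GSTP1, the most abundant of the enzymes, which was added after its values were seen. All lie on the plus strand, and capitals mark matches to any of the 3 motifs. UGT2B7 is shown over chr4:69096224-69096523, SULT2B1 over chr19:48551922-48552221 and GSTP1 over chr11:67583562-67583861.
UGT2B7: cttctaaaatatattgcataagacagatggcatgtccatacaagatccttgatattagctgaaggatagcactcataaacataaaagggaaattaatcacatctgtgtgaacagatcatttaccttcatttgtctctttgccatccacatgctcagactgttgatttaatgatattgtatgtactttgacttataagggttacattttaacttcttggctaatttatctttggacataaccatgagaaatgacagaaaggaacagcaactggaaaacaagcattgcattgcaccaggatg
SULT2B1: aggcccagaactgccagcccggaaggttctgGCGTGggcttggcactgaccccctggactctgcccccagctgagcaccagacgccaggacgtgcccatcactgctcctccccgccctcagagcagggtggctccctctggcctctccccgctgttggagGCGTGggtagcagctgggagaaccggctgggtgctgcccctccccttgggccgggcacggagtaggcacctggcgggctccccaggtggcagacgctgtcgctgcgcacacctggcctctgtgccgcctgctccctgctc
GSTP1: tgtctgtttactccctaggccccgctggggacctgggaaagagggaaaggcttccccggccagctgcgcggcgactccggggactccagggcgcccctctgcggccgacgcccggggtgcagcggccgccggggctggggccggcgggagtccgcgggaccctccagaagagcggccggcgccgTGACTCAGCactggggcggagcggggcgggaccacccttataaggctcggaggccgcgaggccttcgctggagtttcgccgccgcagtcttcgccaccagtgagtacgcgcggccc
The GSTP1 window holds a single capital run at position -66 from the start, in which the response-element core and the AP-1 site overlap. The SULT2B1 window has GCGTG in 2 places and the UGT2B7 window has none of the 3 motifs. GSTP1 and SULT2B1 were both called lower, at log2 changes of -1.02 and -4.33, and UGT2B7 higher, at 3.33.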

How the data were processed

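A stranded mRNA kit was used and fragments were sequenced from both ends (75 bases each), per the labels' protocols. The authors deposited raw counts per gene, 1 file a library, and FastQC 0.11.8, STAR 2.7.1a and HTSeq 0.11.2 are named, per the submitters' processing notes, together with GRCh37 (hg19). Which annotation release and strand setting HTSeq used is not stated here, so overlapping and antisense genes are uncertain. Reads given to no gene were kept out of library sizes. They were 6.51% to 7.79% of all counted reads in TD and 6.12% to 6.86% in A549 for reads outside genes, 2.34% to 2.56% for reads in more than 1 gene, and 8.08% to 9.22% for reads with more than 1 alignment.

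Of 57820 rows, 52338 were paired with a GENCODE 29 symbol and gene type. GENCODE 29 is on another build, so it gave only names, gene order, lengths and transcript sequences. TD was compared with A549 by edgeR 4.0.16 (R 4.3.3), using TMM scaling, the default filter (minimum count 10) and the quasi-likelihood test. Levels are CPM on the TMM scale. SE is the size of the fitted change divided by the square root of F. Alternatives are given in the closing section, with limma 3.58.1 and DESeq2 1.42.0 among them. All called genes of the 5 families and uncalled ones of at least 1 CPM are named, and of each further list the 2 largest called changes in each direction plus 10 genes given whatever their result. UGT1A1, UGT2A3 and the members with few counts that are named fall outside this rule, and PECAM1 was not analysed here. A few of the genes it covers are not reported here. The members and lists were chosen with earlier results of these data known.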

Additional observations from a re-analysis of the deposited data

How the results depend on the processing

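The 17 alternatives changed scaling, test, filter, dispersion, depth, gene set, block or libraries. The number of conjugating enzymes called lower in TD was 14, and ranged from 9 to 18 when a library was left out, being 9 without A549 replicate 1 and 9 without A549 replicate 2. It was also 9 with the gene clusters each summed into 1 feature, which by construction merges genes. The number called higher was 4, and ranged from 3 to 5 when a library was left out. It was 2 with a filter of 5 CPM in 2 libraries, which removes UGT8 and SULT1B1 before testing. Genes of the further lists kept counts within 1.5 times of 14 higher and 38 lower in every alternative. Over the 25 tested members and all alternatives that could give a value, 361 of 401 results kept direction and side of the threshold, 13 lost the call and 17 gained it. Sign changed in 10, for genes that were never called. With a library left out, the log2 change ranged from -0.15 to 0.10 for GSTO1, from -0.21 to 0.12 for NAT1 and from -0.22 to 0.10 for UGT1A6, and it was positive at 0.056 and 0.10 for GSTO1 (without A549 replicate 2 and TD replicate 1), 0.12 and 0.031 for NAT1 and 0.098 and 0.063 for UGT1A6 (without A549 replicate 2 and TD replicate 2). UGT1A1 ranged from -0.26 to 0.50 and was negative without A549 replicate 2 and TD replicate 2 (-0.20). With libraries thinned to the smallest total UGT1A6 was at 0.041 and UGT1A1 at -0.20. The cause was not tested. With the replicate block, 4 were higher and 12 lower, and the adjusted p was 0.0772 for UGT1A8, 0.0502 for UGT2B11, 0.0542 for SLC35B2, 0.0941 for NAT8 and 0.0544 for GLYATL1. Replicate numbers do not pair the libraries by the labels, and deviations of same-numbered libraries correlated at -0.0787. Leaving out a library leaves its group with 1, whose spread is then taken from the other group. Over all genes 7642 were called, against 4350 and 4492 without A549 replicate 1 and 2, and 11469 without TD replicate 1. The biological coefficient of variation was 20.1% with all genes and 7.90% with pseudogenes left out. Depth limits what can be read from the 31 untested genes.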
